A study of Mus musculus with 17 samples.

Results

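The subject here is the transcriptome of mammary gland macrophages from mice that lacked Cxcl12 in luminal epithelial cells, set against macrophages from K8-Cre mice with no Cxcl12 deletion. It comprised 4 of the 17 samples of the series: 2 K8-Cre Cxcl12 knockout libraries (genotype K8Cre+, Cxcl12fl/fl) and 2 K8-Cre control libraries (genotype K8Cre+, described by the submitters as wild type). All 4 were bulk libraries of total RNA from cells sorted on F4/80 and CD11b out of dissociated glands of virgin mice, and both groups carried the Cre transgene. K8-Cre uses the keratin 8 promoter, which is active in luminal cells, so the macrophages of both groups were not themselves the target of the deletion. The labels number the libraries as repeat 1 and repeat 2 within each group, but do not say that a repeat was a separate mouse or that equal numbers shared a preparation, so p-values measure the spread between these libraries, which may be technical. The series' other samples were macrophages from LysM-Cre control and Cxcr4 knockout mice, macrophages divided by surface CXCR4, cultured macrophages, and basal P4 cells.

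CXCL12 is a chemokine that signals through the receptor CXCR4 on leukocytes, and ACKR3 is a second receptor that binds and removes it. Mammary macrophages live in the stroma, where many carry scavenger receptors such as CD163 and lectins of the CD209 family, and along the ducts, where they touch the epithelium. They are the main source of the C1q chains, which start the classical complement cascade. The comparison asked how the macrophages' genes stood when luminal cells could not make CXCL12.

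Of the 2 groups, control 1 stood apart from the other libraries. Depth recovered from the smallest values was 15.3 and 34.2 M reads (M, 1000000 reads) in Cxcl12 knockout 1 and 2, against 8.60 and 37.2 M reads in control 1 and 2. Of 19782 listed genes, 13.7% and 8.11% were at 0 in the knockout libraries, against 37.0% and 8.31% in the control libraries. Among genes of at least 10 CPM (reads per 1000000 reads) on average in the pair compared, control 1 differed by 2-fold or more from each other library in 51.1% to 51.5% of genes, while knockout 2 and control 2 did so in 6.11%. Knockout 1 was between these, differing by 2-fold in 21.9% of genes from knockout 2 and 22.1% from control 2. The change within repeat 1 (knockout 1 minus control 1) therefore had an SD of 2.06 over genes on the log2(CPM + 1) scale, against 0.87 for repeat 2 (knockout 2 minus control 2). Small noncoding RNAs took 2.96% and 17.7% of the reads in the knockout libraries and 6.75% and 15.2% in the control libraries, a difference that followed the repeat number rather than the genotype. For these reasons each change is given within each repeat. The difference of knockout 1 from control 2 is added as a value free of control 1, although it crosses the repeat numbers.

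The sort was checked against defining macrophage genes. Adgre1, which encodes F4/80, stood at 350 and 549 CPM in the Cxcl12 knockout against 470 and 702 CPM in the control. Itgam, which encodes CD11b, stood at 253 and 182 CPM in the Cxcl12 knockout and 298 and 252 CPM in the control. Csf1r, which encodes the CSF1 receptor, stood at 401 and 581 CPM in the knockout and 621 and 638 CPM in the control. All 3 were abundant in every library, and each was lower in the knockout within both repeats. Cd68, described below, was also lower in both. Mertk had 9.34 and 30.9 CPM in the knockout and 0.12 and 38.4 CPM in the control. Fcgr1 had 12.2 and 9.46 CPM in the knockout and 3.37 and 14.45 CPM in the control. Mertk and Fcgr1 were higher in the knockout within repeat 1 and lower within repeat 2. The libraries also held other cells' transcripts: the T cell gene Cd3e was at 40.2 and 24.0 CPM in the knockout and 0.58 and 11.2 CPM in the control, and the endothelial gene Pecam1 at 66.5 and 40.9 CPM in the knockout and 0.59 and 37.6 CPM in the control. Of 18 T and NK cell genes, 1 was below 0 in both repeats (5.56%) and 6 above (33.3%), beside 15.3% and 31.0% of all genes. The endothelial list was mixed, with 4 of 16 genes below (25%) and 5 above (31.2%). Its summed levels were 199.6 and 332.5 CPM in the knockout and 71.3 and 383.5 CPM in the control. Of 15 B cell genes, 6 were below (40%) and 3 above (20%). The summed levels of the B cell list were 621 and 239 CPM in the knockout and 631 and 335.5 CPM in the control. In bulk RNA, fewer cells of a type and less RNA per cell cannot be told apart.

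The promoters of genes that the results below turn on are shown first, as the 250 bases before the RefSeq start on the gene's own strand (GRCm38.p6). RefSeq's table held 5 of the 6 promoters looked for, and C1qa was not among them. C1qb (chr4:136886201-136886450, minus strand), C1qc (chr4:136892915-136893164, minus strand) and Cd68 (chr11:69666171-69666420, minus strand) are shown because the 3 macrophage genes were lower in the knockout in both repeats. Capitals mark GAGGAA, the core bound by the myeloid factor PU.1, searched on both strands, so that it reads TTCCTC on the other strand. It occurs in these 250 bases in 23.3% of all 32851 promoter entries of this length, and a match is a description only.
C1qb: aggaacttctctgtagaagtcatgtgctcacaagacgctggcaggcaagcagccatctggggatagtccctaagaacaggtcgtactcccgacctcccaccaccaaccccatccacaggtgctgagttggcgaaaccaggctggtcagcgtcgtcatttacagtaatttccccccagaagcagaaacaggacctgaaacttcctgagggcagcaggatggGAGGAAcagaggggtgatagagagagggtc
C1qc: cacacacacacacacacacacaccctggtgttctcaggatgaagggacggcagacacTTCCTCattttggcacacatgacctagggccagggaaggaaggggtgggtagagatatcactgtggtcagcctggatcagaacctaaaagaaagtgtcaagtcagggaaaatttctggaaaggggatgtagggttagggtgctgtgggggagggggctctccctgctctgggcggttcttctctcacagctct
Cd68: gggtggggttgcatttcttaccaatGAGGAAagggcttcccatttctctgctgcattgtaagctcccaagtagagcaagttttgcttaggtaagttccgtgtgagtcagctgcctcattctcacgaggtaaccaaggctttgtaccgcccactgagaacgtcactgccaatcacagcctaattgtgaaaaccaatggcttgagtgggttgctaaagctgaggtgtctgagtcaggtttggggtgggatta

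Cd209f (chr8:4105765-4106014, minus strand) and Cd209g (chr8:4134486-4134735, plus strand) are shown because they are neighbouring genes of one lectin family that were lower in the knockout in both repeats. Capitals mark a stretch of 154 bases that is identical in both.
Cd209f: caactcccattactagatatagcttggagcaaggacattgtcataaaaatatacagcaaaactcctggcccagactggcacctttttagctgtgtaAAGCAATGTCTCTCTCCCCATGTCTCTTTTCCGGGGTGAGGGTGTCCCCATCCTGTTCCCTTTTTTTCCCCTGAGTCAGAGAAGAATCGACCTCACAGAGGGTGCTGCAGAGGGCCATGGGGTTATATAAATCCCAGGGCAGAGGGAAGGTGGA
Cd209g: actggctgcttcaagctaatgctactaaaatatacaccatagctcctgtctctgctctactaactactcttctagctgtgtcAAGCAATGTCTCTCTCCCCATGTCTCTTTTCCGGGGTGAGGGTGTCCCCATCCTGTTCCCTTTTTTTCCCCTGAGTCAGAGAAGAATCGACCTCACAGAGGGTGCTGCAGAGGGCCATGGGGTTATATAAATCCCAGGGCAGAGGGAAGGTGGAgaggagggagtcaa

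No gene passed in the comparison of Cxcl12 knockout with control. limma on log2(CPM + 1), fitted over the 8 macrophage libraries of the 2 knockout experiments, called 0 of 17275 genes (0.0%) at a Benjamini-Hochberg adjusted p under 0.05, and the smallest adjusted p was 1. The count was 1 with the repeat number as a block, and 152 when control 2 was left out, which sets the knockout against control 1 alone. At an unadjusted p under 0.05, 415 genes were higher (2.4%) and 76 were lower (0.44%). An exact permutation test of 2 libraries against 2 cannot go below a two-sided p of 0.333 for a single gene. What follows is therefore a description of levels, and no gene is said to have changed.

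Agreement between the repeats was the basis for what is described. Of the 17275 genes, 2650 (15.3%) were below 0 in both repeats and 5352 (31.0%) were above 0 in both. After quantile normalization these shares were 24.6% and 24.9%, and the median fitted change of all genes was 0.02 in place of 0.36. A difference of at least 1 on the log2 scale in both repeats was found for 269 genes in the lower direction (1.56%) and for 843 in the higher direction (4.88%). Both knockout libraries were below both control libraries for 1388 genes (8.03%) and above both for 3523 (20.4%). Among genes of 1 to 10 CPM, 7.2% were at 0 in knockout 1 and 54.3% in control 1. Against control 2 alone, 28.6% of all genes were lower in both knockout libraries and 30.9% higher.

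At high levels the shares within the repeats were nearly even. Among the 2002 genes with a mean of at least 100 CPM, 491 (24.5%) were below 0 in both repeats and 515 (25.7%) above 0 in both, and the median changes were 0.00 in repeat 1 and 0.01 in repeat 2. The groups did not overlap for 207 of these genes in the lower direction (10.3%) and 284 in the higher direction (14.2%). Against control 2 alone they were uneven, with 18.7% lower in both knockout libraries and 40.5% higher in both. Across all genes the changes in repeat 1 and repeat 2 showed no correlation, with Pearson's r = -0.003 and Spearman's rho = -0.004 over 17275 genes, which are not independent replicates.

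**Figure D1:**
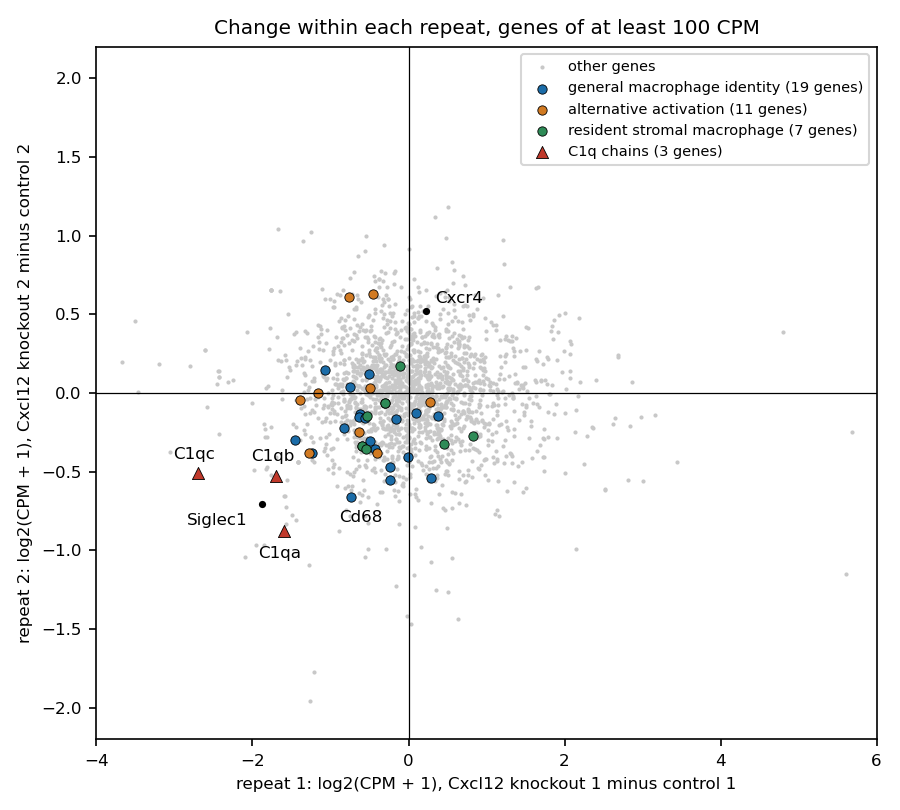
Change of each gene within repeat 1 (horizontal) and repeat 2 (vertical), Cxcl12 knockout minus control on the log2(CPM + 1) scale, for the 2002 genes of at least 100 CPM, 1 of which lies outside the axes. Grey points spread evenly over the quadrants, while 13 of 19 general macrophage genes and the C1q chains lie at the lower left.

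The genes that define macrophages in general stood lower in the Cxcl12 knockout. Of 24 list members tested, 13 were below 0 in both repeats and 2 were above 0 in both, against 15.3% and 31.0% of all genes. All 13 belonged to the 19 members of at least 100 CPM, a level at which 24.5% of genes were below 0 in both repeats. The groups did not overlap, with the knockout lower, for 10 of these 19, beside 10.3% of all genes at this level. The list's median change was -0.46 in repeat 1 and -0.20 in repeat 2, beside 0.57 and -0.02 for all genes tested. Without control 1, 16 of the 24 were lower in both knockout libraries than in control 2, beside 28.6% of all genes.

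Cd68, a scavenger receptor of the lysosome, had the same level in both knockout libraries, 154 and 154 CPM, against 257 and 244 CPM in the control libraries. The knockout libraries were both lower, with no overlap, and the change was -0.73 in repeat 1 and -0.66 in repeat 2. Its fitted change was -0.70 with a 95% interval from -1.79 to 0.40 (limma, adjusted p = 1). Tyrobp, the adaptor that carries signals of many myeloid receptors, had 80.9 and 136 CPM in the knockout against 223 and 168 CPM in the control. Fcer1g, the adaptor of Fc receptors, had 236 and 287 CPM in the knockout against 419 and 335 CPM in the control. In both genes too the knockout libraries lay under both controls, and the changes within repeat 2, -0.30 and -0.22, were smaller than those within repeat 1, -1.45 and -0.82. Lyz2, the macrophage lysozyme, averaged 5889 ± 1117 CPM in the knockout and 7677 ± 346 CPM in the control (SD, n = 2 each).

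The 2 members above 0 in both repeats were Spi1 and Aif1. Spi1, which encodes PU.1, had 92.3 and 67.1 CPM in the knockout against 2.56 and 49.1 CPM in the control. Its fitted change of 2.58 was 4.71 within repeat 1 and 0.44 within repeat 2. Aif1, which encodes the actin-binding protein IBA1, had 13.1 and 15.4 CPM in the knockout against 6.39 and 10.4 CPM in the control.

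**Figure D2:**
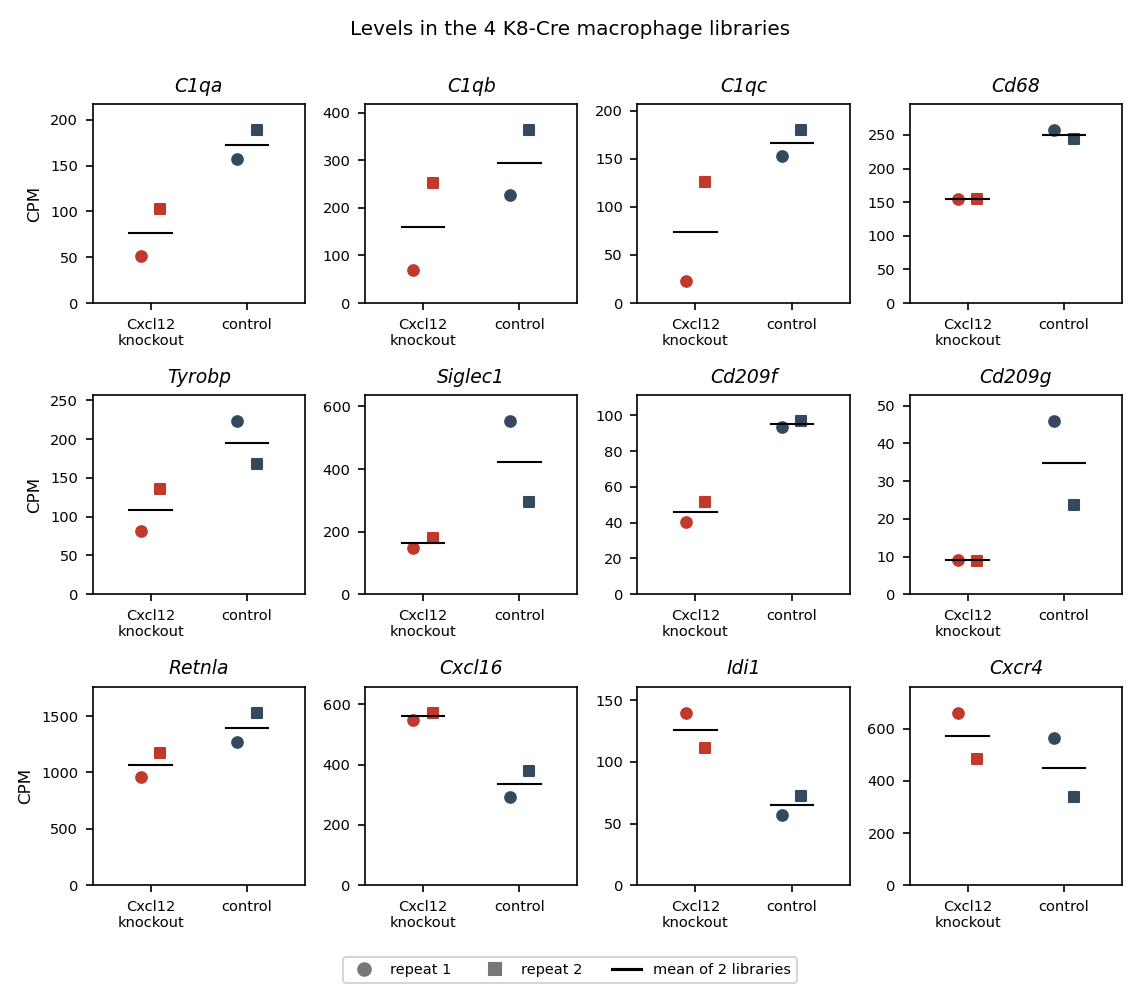
CPM of 12 genes in the 2 Cxcl12 knockout libraries (red, left) and the 2 control libraries (dark, right), with circles for repeat 1, squares for repeat 2 and bars for the mean of 2 libraries. For Cd68, both knockout libraries sit at 154 CPM, below the 257 and 244 CPM of the controls, and for Cxcl16 the knockout libraries lie above both controls.

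The 3 chains of C1q stood lower in the knockout within both repeats. C1qa (chr4:136895917-136898804) had 51.2 and 102 CPM in the knockout against 157 and 189 CPM in the control. C1qb had 69.2 and 252 CPM in the knockout against 226 and 363 CPM in the control, and C1qc had 22.7 and 126 CPM in the knockout against 153 and 180 CPM in the control. The lowest of the 4 libraries was knockout 1 for each chain. The groups were apart for C1qa and C1qc, and overlapped for C1qb.

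The fitted changes were -1.24 for C1qa, -1.11 for C1qb and -1.60 for C1qc, with unadjusted p of 0.046, 0.042 and 0.012 in limma, and an adjusted p of 1 for each. In repeat 2 alone the changes were smaller, -0.87, -0.52 and -0.51. Knockout 1 set against control 2 gave -1.86, -2.37 and -2.93, so both knockout libraries lay below control 2 for each chain. Knockout 1 and control 2 have different repeat numbers and differed by 2-fold in 22.1% of genes. Whether this accounts for the larger values was not tested. C4b, the complement component cleaved after C1q binds, had 150 and 252 CPM in the knockout against 306 and 352 CPM in the control. Of the 14 members tested of the wider complement list, 4 were below 0 in both repeats (the 3 chains and C4b) and 4 above, 28.6% in each direction beside 15.3% and 31.0% of all genes. Among its 10 members of at least 100 CPM, 4 were below and 1 above. Without control 1, 6 of the 14 were lower in both knockout libraries than in control 2 and 1 was higher, and the median of knockout 1 minus control 2 was -0.97.

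Genes of resident stromal macrophages leaned the same way. Of 22 members tested, 13 were below 0 in both repeats and 0 were above 0 in both, beside 15.3% and 31.0% of all genes, and the list's medians were -0.50 in repeat 1 and -0.35 in repeat 2. The groups were apart, with the knockout lower, for 6 members, beside 8.03% of all genes, but for 0 of the 7 members of at least 100 CPM. Without control 1, both knockout libraries lay below control 2 for 18 of the 22 and above it for 1, beside 28.6% and 30.9% of all genes. The series' macrophages divided by surface CXCR4 gave 2 CXCR4-positive libraries and 1 CXCR4-negative one. There the median of the same list was 5.17 higher in the CXCR4-positive libraries on the log2(CPM + 1) scale. For genes of at least 100 CPM that median was -0.05. Cxcr4 RNA itself had 632 and 875 CPM in the CXCR4-positive libraries and 772 CPM in the CXCR4-negative one. Whether a shift between these cells accounts for the list's values was not tested.

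Cd209f, a lectin of stromal macrophages, had 40.4 and 51.5 CPM in the knockout against 93.5 and 96.5 CPM in the control. Both groups were tight, at 46.0 ± 7.88 CPM in the knockout and 95.05 ± 2.12 CPM in the control (SD, n = 2 each), and the changes were -1.19 and -0.89. Its neighbour Cd209g had 9.07 and 8.89 CPM in the knockout against 45.8 and 23.8 CPM in the control. The identical stretch shown above lies before their RefSeq starts. In the annotation of the deposited values, Cd209g starts at chr8:4134098 and Cd209f at chr8:4105836. By these positions the stretch lies within Cd209g and partly within Cd209f. Their transcripts were not compared, so whether reads were divided between them is uncertain. Pf4, a platelet-type chemokine that stromal macrophages make, had 49.5 and 52.7 CPM in the knockout against 80.2 and 69.2 CPM in the control. Wfdc17, a small secreted protein of activated macrophages, had 39.2 and 21.5 CPM in the knockout against 54.8 and 40.04 CPM in the control. Selenop, the selenium carrier, had 1389 and 2351 CPM in the knockout against 2018 and 3005 CPM in the control. It was chosen after its values were seen, as the most abundant member, and its groups overlapped.

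Siglec1, the sialic acid receptor of tissue macrophages, was not on this list and was chosen after its values were seen. It had 149 and 180 CPM in the knockout against 552 and 294 CPM in the control, with changes of -1.88 and -0.70. Its fitted change of -1.29 had a 95% interval from -2.29 to -0.29 (limma, unadjusted p = 0.012, adjusted p = 1). Without control 1 the difference of knockout 1 from control 2 was -0.98.

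**Figure D3:**
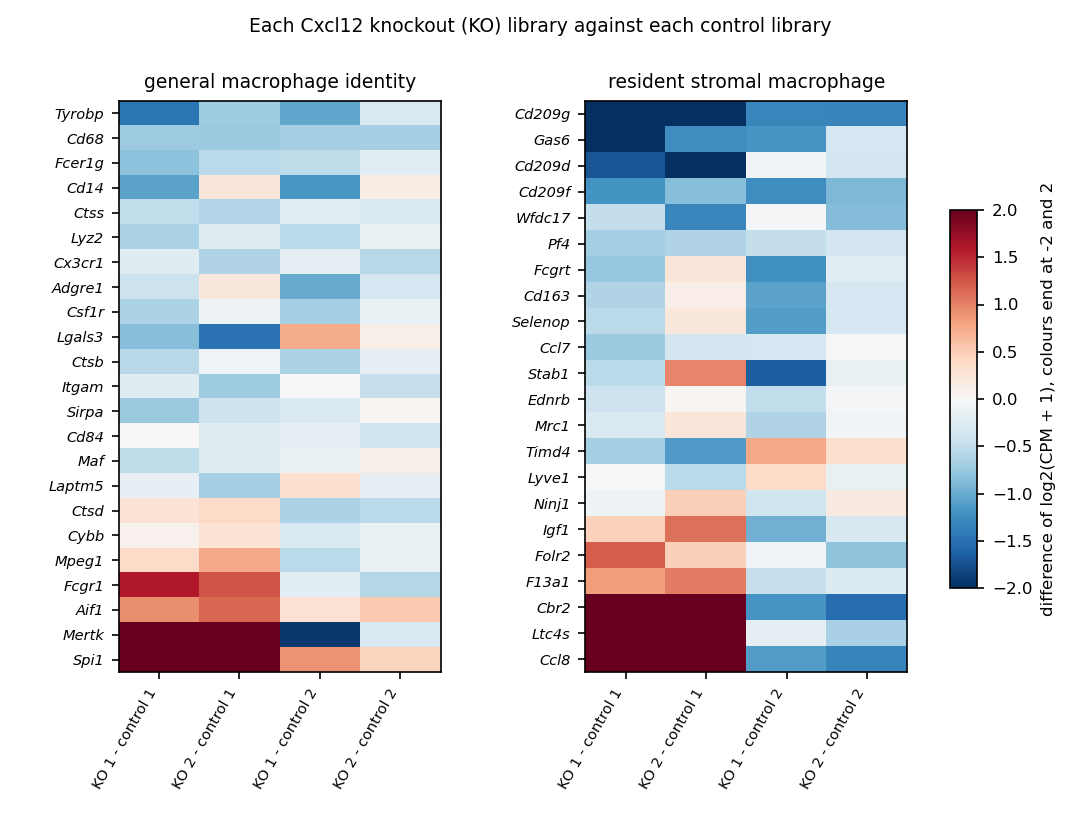
Difference of each Cxcl12 knockout library from each control library on the log2(CPM + 1) scale for 23 of the 24 general macrophage genes and the 22 resident stromal genes, blue where the knockout is lower and red where it is higher. Blue prevails against both controls for Cd68, Tyrobp, Cd209f and Cd209g, and the strong red cells stand against control 1 in Spi1, Mertk, Cbr2, Ltc4s and Ccl8.

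Ductal macrophages, which express CX3CR1, gave a mixed picture, with 6 of 17 members below 0 in both repeats and 5 above. These were shares of 35.3% and 29.4%, beside 15.3% and 31.0% of all genes. P2ry12, a nucleotide receptor, had 4.70 and 12.7 CPM in the knockout against 39.0 and 19.7 CPM in the control. Gpnmb, a membrane glycoprotein of lipid-laden macrophages, had 20.3 and 23.0 CPM in the knockout against 44.2 and 39.6 CPM in the control. Apoe, the lipid carrier, had 123 and 144 CPM in the knockout against 290 and 194 CPM in the control. Tmem119, best known as a microglial marker, had 0.33 and 4.45 CPM in the knockout against 28.6 and 10.2 CPM in the control. These 4 were named for their large agreeing changes, and none of them had an adjusted p below 1 in limma. All 4 had both knockout libraries below both controls. Of the 17 members, 6 stood this way and 1 had both knockout libraries above both controls, beside 8.03% and 20.4% of all genes.

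Genes of alternative activation, the programme driven by IL-4, also leaned lower. Of 18 members, 10 were below 0 in both repeats and 0 above, beside 15.3% and 31.0% of all genes, with medians of -0.54 and -0.15. Retnla, a secreted marker of this programme, had 958 and 1172 CPM in the knockout against 1266 and 1530 CPM in the control, with changes of -0.40 and -0.38. Tgm2, a transglutaminase, had 158 and 150 CPM in the knockout against 384 and 196 CPM in the control. Cd163, the haemoglobin scavenger receptor, had 120 and 200 CPM in the knockout against 182 and 253 CPM in the control, and Chil3, a chitinase-like protein, had 107 and 196 CPM in the knockout against 166 and 233 CPM in the control. The groups were apart for Retnla and Tgm2 and overlapped for Cd163 and Chil3. Without control 1, 9 of the 18 were lower in both knockout libraries than in control 2 and 4 higher, beside 28.6% and 30.9% of all genes. Of the 18, 11 were at 100 CPM or more, and 7 of these were below 0 in both repeats and 0 above. At this level 24.5% of genes were below and 25.7% above.

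Among the Fc receptors and the CD300 and SIRP receptors, single genes stood apart. Fcgr3, an activating Fc receptor, had 73.6 and 36.6 CPM in the knockout against 175 and 75.6 CPM in the control, with knockout 1 and control 2 nearly equal. Sirpb1a, an activating SIRP receptor, had 58.1 and 59.6 CPM in the knockout against 213 and 118 CPM in the control. Cd300lf had 66.5 and 21.7 CPM in the knockout against 180 and 52.8 CPM in the control, with groups that overlapped. Cd300ld3 had 0.02 and 22.7 CPM in the knockout against 74.0 and 48.2 CPM in the control, and its copy Cd300ld2 had 3.66 and 2.44 CPM in the knockout against 0 and 0.04 CPM in the control. Both families hold near-identical copies between which reads can be divided, so these values are uncertain. As lists, the Fc receptors had 4 of 9 members below 0 in both repeats and 2 above, and the CD300 and SIRP receptors 6 of 16 below and 3 above, where 15.3% and 31.0% of all genes were. The groups overlapped for 2 further Fc receptors, Fcgr4, at 10.6 and 26.1 CPM in the knockout and 6.97 and 14.2 CPM in the control, and Fcmr, at 11.4 and 0.91 CPM in the knockout and 19.5 and 1.83 CPM in the control.

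For the ligand and its receptors, the groups overlapped. Cxcl12 itself had 58.2 and 164 CPM in the knockout macrophages against 11.7 and 149 CPM in the control, a change of 2.22 in repeat 1 and 0.13 in repeat 2. Without control 1 the difference of knockout 1 from control 2 was -1.34. These reads come from the sorted cells and what was sorted with them, so they do not check the deletion in luminal cells. In the 1 P4 library per genotype, which holds basal cells, Cxcl12 was at 350 FPKM in the knockout and 270 FPKM in the control.

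Cxcr4 had 661 and 483 CPM in the knockout against 564 and 337 CPM in the control, with changes of 0.23 and 0.52 and overlapping groups. Its fitted change was 0.37 with a 95% interval from -0.59 to 1.34 (limma, adjusted p = 1). Ackr3 had 9.53 and 6.12 CPM in the knockout against 1.51 and 10.9 CPM in the control, so its change was 2.07 in repeat 1 and -0.74 in repeat 2. Of the 18 genes of the CXCL12 and CXCR4 axis, 4 were below 0 in both repeats (22.2%) and 6 above (33.3%), beside 15.3% and 31.0% of all genes. Among its 9 members of at least 100 CPM, 4 were below and 1 above. At this level 24.5% of genes were below and 25.7% above.

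Other chemokines differed one by one. Cxcl16, a membrane-bound chemokine that also takes up oxidised lipid, had 548 and 572 CPM in the knockout against 292 and 380 CPM in the control, changes of 0.90 and 0.59 with no overlap. Cxcl10, an interferon-induced chemokine, had 50.5 and 48.2 CPM in the knockout against 31.4 and 29.9 CPM in the control, a change of 0.67 in each repeat. Ccl3 had 104 and 54.4 CPM in the knockout against 192 and 101 CPM in the control, changes of -0.89 and -0.88, but knockout 1 lay slightly above control 2. Ccl12 had 11.7 and 11.8 CPM in the knockout against 0 and 6.93 CPM in the control. Of 21 chemokines tested, 4 were below 0 in both repeats (19%) and 4 above (19%), beside 15.3% and 31.0% of all genes.

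No myeloid chemokine receptor was above 0 in both repeats, and 5 of 14 were below (35.7%), beside 31.0% and 15.3% of all genes. Cx3cr1, the fractalkine receptor, had 112 and 86.9 CPM in the knockout against 132 and 128 CPM in the control. Ccrl2 had 167 and 96.8 CPM in the knockout against 188 and 139 CPM in the control, and Cxcr6 had 118 and 17.2 CPM in the knockout against 121 and 29.5 CPM in the control. The groups were apart for Cx3cr1 and overlapped for Ccrl2 and Cxcr6. Ccr2, the receptor that brings monocytes into tissue, had 614 and 554 CPM in the knockout against 597 and 648 CPM in the control. Ly6c2, a monocyte surface gene, had 184 and 148 CPM in the knockout against 204 and 198 CPM in the control.

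Antigen presentation genes stood in both directions. Of 14 class II genes, 5 were below 0 in both repeats (35.7%) and 3 above (21.4%), beside 15.3% and 31.0% of all genes. Among the 10 of at least 100 CPM, 5 were below and 1 above. At this level 24.5% of genes were below and 25.7% above. Ctss, the protease that trims the invariant chain, had 522 and 489 CPM in the knockout against 736 and 605 CPM in the control. Cd86, a costimulatory ligand, had 243 and 272 CPM in the knockout against 151 and 214 CPM in the control. The peptide-loading genes H2-DMb1, at 160 and 122 CPM in the knockout and 264 and 176 CPM in the control, and H2-DMb2, at 94.3 and 81.1 CPM in the knockout and 11.7 and 56.1 CPM in the control, stood in opposite directions. They are neighbouring copies, and reads may be divided between them.

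Immediate early genes, which respond within minutes to tissue dissociation, had 15 of 28 members below 0 in both repeats and 3 above, beside 15.3% and 31.0% of all genes. Of the 28, 23 were at 100 CPM or more, and 12 of these were below 0 in both repeats and 2 above. At this level 24.5% of genes were below and 25.7% above. Without control 1, 7 of the 28 were lower in both knockout libraries than in control 2 and 2 higher. Beside this, 28.6% of all genes were lower and 30.9% higher. Of those at 100 CPM or more, 18.7% were lower and 40.5% higher. Fosb, a subunit of the AP-1 factor, had 1435 and 1514 CPM in the knockout against 1826 and 1975 CPM in the control, with no overlap. Socs3, a feedback inhibitor of cytokine signals, had 75.9 and 97.8 CPM in the knockout against 161 and 125 CPM in the control. Ier2 had 89.7 and 50.5 CPM in the knockout against 176 and 75.6 CPM in the control, and Hspb1, a small heat shock protein, had 9.34 and 21.7 CPM in the knockout against 0.76 and 11.7 CPM in the control. These genes are known to respond to handling, and their part in the other differences was not tested.

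Interferon-stimulated genes had 8 of 25 members below 0 in both repeats (32%) and 4 above (16%), beside 15.3% and 31.0% of all genes. Ifit3 had 17.7 and 10.7 CPM in the knockout against 67.5 and 25.7 CPM in the control, and Ddx58, the RNA sensor RIG-I, had 92.7 and 44.5 CPM in the knockout against 139 and 83.1 CPM in the control. Bst2, which tethers budding virus, had 10.5 and 17.7 CPM in the knockout against 0 and 11.3 CPM in the control. Glycolysis and hypoxia genes had 9 of 23 below 0 in both repeats (39.1%) and 3 above (13%), beside the same shares of all genes. Pgk1 had 46.7 and 67.3 CPM in the knockout against 111 and 83.6 CPM in the control, Pfkl had 13.7 and 14.6 CPM in the knockout against 42.7 and 20.2 CPM in the control, and Hk2 had 140 and 96.8 CPM in the knockout against 169 and 125 CPM in the control. Egln3, an oxygen-sensing hydroxylase, was near the floor at 2.09 and 1.46 CPM in the knockout and 0.58 and 0.22 CPM in the control. The 13 genes encoded by the mitochondrial genome had none with the same sign in both repeats, with medians of 0.40 and -0.64.

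Sterol synthesis genes stood higher mainly against control 2. Of 21 members, 8 were above 0 in both repeats (38.1%) and 3 below (14.3%), near the 31.0% and 15.3% of all genes. Against control 2, 14 of the 21 were higher in both knockout libraries, beside 30.9% of all genes. The list's summed level was 1144 and 872 CPM in the knockout and 1150 and 750.1 CPM in the control. Idi1, the isomerase that feeds the sterol pathway, had 140 and 112 CPM in the knockout against 56.96 and 72.7 CPM in the control. Sqle, the first oxygen-requiring step, had 14.8 and 21.4 CPM in the knockout against 6.74 and 6.90 CPM in the control. Hsd17b7 had 17.4 and 13.8 CPM in the knockout against 0 and 7.65 CPM in the control, and Mvk had 16.1 and 3.16 CPM in the knockout against 0 and 1.83 CPM in the control. In these 4 genes, named for their large agreeing changes, both knockout libraries lay above both controls. This held for 7 of the 21 members, beside 20.4% of all genes.

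AKT and FOXO genes, which the study addressed in culture with an AKT inhibitor, had 7 of 26 members above 0 in both repeats (26.9%, beside 31.0% of all genes) and 2 below (7.69%, beside 15.3%). Foxo1 had 151 and 92.2 CPM in the knockout against 13.7 and 65.5 CPM in the control, so that its fitted change of 1.93 (limma, unadjusted p = 0.0094, adjusted p = 1) was 3.37 in repeat 1 and 0.49 in repeat 2. Bcl2l11, a FOXO target that promotes cell death, had 516 and 390 CPM in the knockout against 346 and 337 CPM in the control. Tsc1, an inhibitor of mTOR, had 84.1 and 59.95 CPM in the knockout against 3.37 and 52.8 CPM in the control. Klf2, another FOXO target, had 144 and 40.6 CPM in the knockout against 175 and 51.4 CPM in the control. Against control 2 alone, 12 of the 26 were higher in both knockout libraries and 3 lower, beside 30.9% and 28.6% of all genes. Of the 26, 13 were at 100 CPM or more, a level at which 40.5% of genes were higher.

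Signals that macrophages could send to the epithelium showed no common direction. Of 19 Wnt ligands, 5 were high enough to be tested, and none had the same sign in both repeats. Of 21 growth factors to the epithelium, 7 were above 0 in both repeats (33.3%) and 5 below (23.8%), beside 31.0% and 15.3% of all genes. Areg, an EGF receptor ligand, had 11.1 and 12.5 CPM in the knockout against 1.16 and 2.12 CPM in the control, changes of 2.48 and 2.11 with groups well apart. Luminal cells also make Areg, and the luminal list had 6 of 17 members above 0 in both repeats (35.3%) and 5 below (29.4%). Its summed level was 439 and 624 CPM in the knockout and 766 and 600 CPM in the control. No member of the luminal list was at 0 in any of the 4 libraries, and its part in the Areg difference was not tested. Pdgfa had 9.82 and 31.7 CPM in the knockout against 0.35 and 16.0 CPM in the control, Pdgfc had 9.60 and 21.7 CPM in the knockout against 0.70 and 11.8 CPM in the control, and Vegfb had 5.03 and 5.80 CPM in the knockout against 0 and 3.04 CPM in the control.

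**Figure D4:**
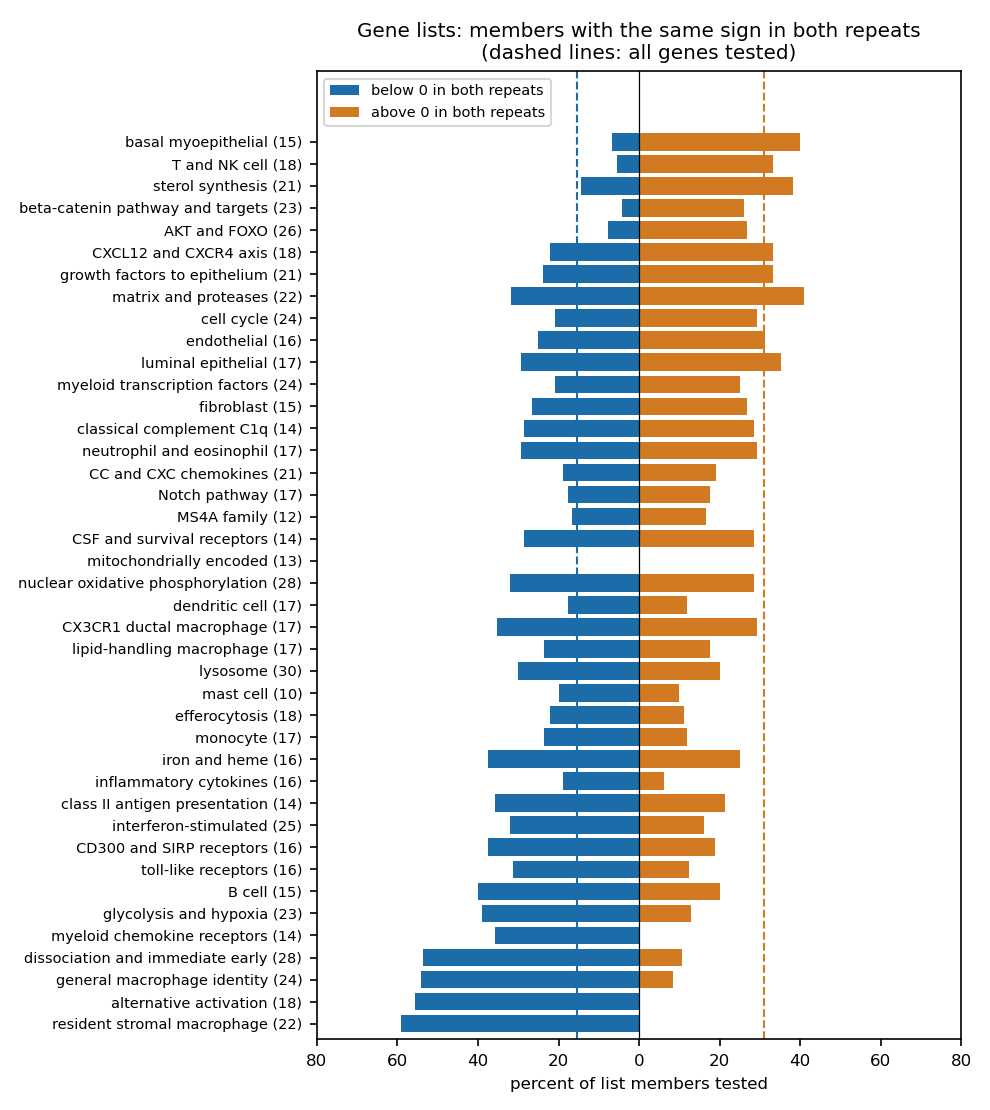
Share of each list's members (number tested in brackets) that were below 0 in both repeats (left bars) or above 0 in both (right bars), Cxcl12 knockout minus control, for lists with at least 10 members tested. Dashed lines mark 15.3% and 31.0%, the shares of all genes tested, and the 4 lists at the bottom pass 50% on the left side.

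Of 18 markers of T and NK cells, 6 were above 0 in both repeats (33.3%, beside 31.0% of all genes) and 1 below. Cd3g had 7.70 and 6.53 CPM in the knockout against 0 and 0.70 CPM in the control, Cd3d had 5.61 and 0.26 CPM in the knockout against 0 in both controls, and Lck had 36.2 and 8.35 CPM in the knockout against 66.8 and 17 CPM in the control. The summed level of this list was 540 and 353 CPM in the knockout and 604 and 337 CPM in the control, with 0 and 2 members at 0 in the knockout and 7 and 1 in the control. The sum was higher in repeat 1 than in repeat 2 in both groups. The sums of the general macrophage list were 11940 and 14620 CPM in the knockout and 16510 and 16560 CPM in the control, and those of the monocyte list were 3242 and 3025 CPM in the knockout and 3382 and 3498 CPM in the control. Whether a shift among cell types accounts for any gene's value was not tested.

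Ordered by the smaller of their 2 within-repeat changes among genes of at least 10 CPM, the first 12 higher genes were mostly of low level. H3c11, a histone gene, led with 30.1 and 12.3 CPM in the knockout against 0.10 and 0 CPM in the control. Chtf8, a subunit of a clamp loader, had 17.5 and 34.7 CPM in the knockout against 0.21 and 2.77 CPM in the control, and Nelfe, a subunit of the polymerase pausing factor, had 19.3 and 21.9 CPM in the knockout against 0 and 2.44 CPM in the control. Cntn1, a neuronal adhesion protein, had 20.8 and 18.1 CPM in the knockout against 4.77 and 4.32 CPM in the control. The others were Otud1, Sap18b, Snrnp40, Insm1, Prrx1, Fpgt, Etv5 and Cbarp, with within-repeat changes from 1.66 to 5.53. Of the 12, all but Prrx1 had both knockout libraries above both controls. The order by which they were chosen favours such genes, and 20.4% of all genes also stood this way.

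The first 12 lower genes on the same order were led by Aasdhppt, a transferase that activates carrier proteins, with 3.52 and 2.14 CPM in the knockout against 88.2 and 19.4 CPM in the control. Med18, of the Mediator complex, had 1.18 and 0.29 CPM in the knockout against 45.2 and 5.83 CPM in the control. Ms4a8a, a tetraspan membrane protein of myeloid cells, had 0.33 and 3.05 CPM in the knockout against 21.04 and 15.6 CPM in the control. Pou2af1, a B cell coactivator, had 18.7 and 1.82 CPM in the knockout against 97.0 and 13.4 CPM in the control. The others were Yju2, Pheta2, Amigo3, Ctla2a, Tex15, H3c2, Adamdec1 and Mrpl46, with changes from -5.10 to -1.98. The groups overlapped for Yju2, Pou2af1, Amigo3, H3c2 and Adamdec1. H3c11 and H3c2 belong to the same histone family, whose near-identical copies can share reads.

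At levels where no gene was at 0 in control 1, agreeing genes differed less. Among the genes of at least 100 CPM, a set chosen after the values were seen, Hivep2, a zinc finger repressor, had 204 and 154 CPM in the knockout against 87.7 and 77.8 CPM in the control. Fnip2, a partner of folliculin, had 319 and 341 CPM in the knockout against 102 and 215 CPM in the control, and Larp4, an RNA-binding protein, had 163 and 190 CPM in the knockout against 69.3 and 107 CPM in the control. Il6ra, the interleukin 6 receptor, had 260 and 247 CPM in the knockout against 143 and 160 CPM in the control, and Traf6, which relays toll-like receptor signals, had 198 and 142 CPM in the knockout against 101 and 93.3 CPM in the control. Mreg had 362 and 212 CPM in the knockout against 240 and 123 CPM in the control, with overlapping groups. On the lower side Ly6e, a membrane-anchored protein, had 313 and 450 CPM in the knockout against 521 and 691 CPM in the control.

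The smallest unadjusted p-values in limma belonged to genes near 0 in control 1, to small nuclear RNA entries and to 1 antisense entry. On the higher side these were Rpl10-ps1, at 105 and 95.1 CPM in the knockout and 0.01 and 97.2 CPM in the control, Tomm22, at 82.5 and 68.5 CPM in the knockout and 0.23 and 45.01 CPM in the control, and Tmcc1, at 164 and 93.1 CPM in the knockout and 1.74 and 96.2 CPM in the control. Within repeat 2 their changes were -0.03, 0.60 and -0.05. On the lower side Gm25939, a small nuclear RNA entry, had 620 and 1336 CPM in the knockout against 2645 and 2756 CPM in the control, changes of -2.09 and -1.04. Gm24497, of the same class, had 290 and 1392 CPM in the knockout against 1133 and 2716 CPM in the control. 4930500A05Rik was listed at 0 in both knockout libraries, against 53.1 and 6.74 CPM in the control. All 6 had an adjusted p of 1 in limma.

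Abundant small noncoding RNAs were lower in both repeats in several cases, and were chosen after their values were seen. Rn7sk, the 7SK RNA that holds the elongation factor P-TEFb, had 9171 and 14210 CPM in the knockout against 15470 and 24480 CPM in the control, changes of -0.75 and -0.78. Snora30 had 71.9 and 107 CPM in the knockout against 176 and 230 CPM in the control, and Rpph1, the RNA of RNase P, had 101 and 175 CPM in the knockout against 344 and 252 CPM in the control. Of 360 small noncoding entries tested, 76 were below 0 in both repeats and 66 above, beside 15.3% and 31.0% of all genes. Their total share of reads followed the repeat number.

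The Cxcl12 knockout was then set against the Cxcr4 knockout in myeloid cells, by a test of the difference between the 2 changes in the same limma fit. Only Lyz2, the gene that carries LysM-Cre, passed (1 of 17275, 0.00579%), and 428 genes had an unadjusted p under 0.05. For the resident stromal list, 3 members were below 0 in both repeats of the Cxcr4 knockout and 9 above, and for the general macrophage list 5 were below and 7 above. Of all genes tested, 17% were below 0 in both repeats of the Cxcr4 knockout and 26.6% above, and the general macrophage counts, 5 and 7 of 24, were near these shares. Between the Cxcr4 knockout and its own control, Cd209f differed by 0.18 in repeat 1 and 0.52 in repeat 2, and C1qa by 0.93 and 0.49. Lyz2 is on the general macrophage list, and its large change was in the Cxcr4 knockout (-6.47), beside -0.39 in the Cxcl12 knockout. Since no other gene passed the test of the difference between the knockouts, no gene is called particular to the Cxcl12 knockout.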

How the data were processed

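Values of the macrophage libraries were deposited by the authors as log2(CPM + 0.0001), one row per gene; the scale was read from the values, which give 1000000 per library once undone. The values were turned back to CPM, and depth was read from the value of 1 read. P4 values were deposited as FPKM by the authors. The submitters' processing notes name STAR 2.7.8a and Partek, and hg38 as build; the gene starts matched the mouse annotation GENCODE M21 (GRCm38) for 99.3% of 19314 genes. Of low values, 74.4% to 87.8% were whole reads within 0.05, so no count test was run.

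Genes with at least 1 CPM in at least 2 of 8 libraries entered limma 3.58.1 (R 4.3.3) on log2(CPM + 1), with 4 group means, a mean-variance trend and Benjamini-Hochberg adjustment over 17275 genes; the pseudocount of 1 understates changes of low genes. The code was tested on simulated data. The P4 libraries, 1 per genotype, were not tested. Equal repeat numbers were not treated as pairs in the main fit.

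The members and the 44 gene lists were chosen with earlier results of these data known. Named genes were the ligand and receptors, the C1q chains, 12 agreeing genes per direction at 10 CPM or more (predicted genes, pseudogenes and small RNAs left out), up to 4 members per list with the largest smaller change, for the lists described, and the 3 smallest p-values per direction. Sort markers, further list members and genes of at least 100 CPM were added after values were seen. Some genes that the rule names are not reported here. Alternatives covered the pseudocount, filter, scaling, weights, trend, block and each library left out.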

Additional observations from a re-analysis of the deposited data

Results flagged for a closer look

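Lyz2 was marked for a closer look because its change differed between the knockouts in a test of the difference itself. It had 5099 and 6678 CPM in the Cxcl12 knockout against 7922 and 7433 CPM in its control, and 67.4 and 51.7 CPM in the Cxcr4 knockout against 10230 and 2780 CPM in its control. The change in the Cxcl12 knockout minus that in the Cxcr4 knockout was 6.08 on the log2 scale (limma, adjusted p = 2.9e-14).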

How the results depend on the processing

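No gene passed limma in the main comparison, nor with another pseudocount, filter, scaling, weighting or without the trend. Leaving out 1 library gave 0 to 152 genes, with 152 when control 2 was left out, which sets 1 control library (control 1) alone against the knockout, assumed to vary like the other groups; 1850 then had an unadjusted p under 0.05. The replicate block gave 1 gene (Gm25939), and the 4 K8-Cre libraries alone with the replicate block gave 4. Gene by gene, deviations from the group means correlated weakly, at 0.091 between the K8-Cre groups and at 0.057 to 0.139 over all 6 pairs of groups. The share of small noncoding RNA did follow the repeat number in all 4 groups. It was 2.96% to 6.75% in the repeat 1 libraries and 15.2% to 19.3% in the repeat 2 libraries. Whether equal numbers shared a preparation was not tested.

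For the difference between the knockouts, the count of 1 became 2 without a filter, 2 with array weights and 0 without the trend, and ranged from 1 to 28 over the libraries left out (LysM-Cre control 2 left out gave 28 and LysM-Cre control 1 left out gave 4, while Cxcr4 knockout 2 or K8-Cre control 2 left out gave 2). The cause was not tested.

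The count of genes higher in both repeats by at least 1 (843) was 1404 with a pseudocount of 0.1 CPM, 448 with quantile normalization and 487 with a filter of 5 CPM. The count of genes lower in both repeats by at least 1 (269) was 412 with a pseudocount of 0.1 CPM, 502 with quantile normalization and 125 when the groups had to be apart by the same margin. Quantile normalization made the shares below and above 0 in both repeats 24.6% and 24.9%. Leaving out a library gives no value for these counts.

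The median of the general macrophage list was -0.57 with median-ratio size factors and ranged from -0.39 (without control 2) to -0.16 (without knockout 1) over the libraries left out, beside -0.35 in full. Without control 1, in an alternative added after the data were seen, the immediate early list had 7 members lower in both knockout libraries in place of 15. It had 2 higher in place of 3.

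Of named genes, quantile normalization turned Ackr3 to -0.82 and Egln3 to -0.64. Over the libraries left out, the fitted change ranged from -0.46 to 1.79 for Ackr3, -0.61 to 2.96 for Cxcl12, -0.74 to 0.045 for Ccrl2, -1.75 to 0.97 for Cxcr6, -2.08 to 0.78 for Fcmr, -1.21 to 0.59 for Klf2 and -1.90 to 0.09 for Lck. Control 1 had a depth of 8.60 M reads (M, 1000000 reads). Genes at 0 in control 1 were most frequent among those of 1 to 10 CPM, at 54.3%. The SD of the repeat 1 change was 1.87 there, 2.85 at 10 to 30 CPM and 1.83 at 30 to 100 CPM. For repeat 2 these SDs were 1.1, 0.75 and 0.466. Whether depth accounts for this was not tested.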
